A study of Mus musculus with 2 samples.

Results

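Open regions without any footprint are stretches of accessible chromatin in which the deposited footprint list holds no protected site. They were taken from the shorter peak list of each library on chromosomes 1 to 19. A member overlapped no footprint of its own library by 1 bp and had a deposited signal value of at least the median of its library. This gave 588 members among 35699 peaks at or above the median in replicate 1 (1.65%, 95% Wilson interval 1.52 to 1.78%). Replicate 2 gave 1426 members among 54442 such peaks (2.62%, 2.49 to 2.76%). The lists held 71313 and 108103 peaks on these chromosomes, of 73221 and 111105 on all chromosomes. The members were thus chosen by 2 measured values, the footprint calls and the signal of their own library, and both are given here as description only.

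The libraries were DNase-seq of the left cerebral cortex from male B6CASTF1/J mice of 18 to 20 months, an F1 hybrid of C57BL/6J and the wild-derived strain CAST/EiJ. Both belong to a single untreated group, so the comparison is between members and footprinted peaks inside each library. The labels number them as biological replicates 1 and 2 but name the same donor entry for both, so the spread between them may be technical. The tissue is a mixture of cell types, and a peak open in fewer cells cannot be told apart from a peak with fewer cuts per cell.

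DNase I cuts DNA where nucleosomes leave it exposed. A protein bound to its site inside such an open region shields a few bases, which are cut less than the bases beside them, and this short protected stretch is a footprint. Factors that stay on DNA for a short time are known to leave shallow footprints or none, and the depth of a footprint also depends on sequencing depth and on the sequence preference of the enzyme.

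The peaks shown first are the strongest promoter regions and the strongest regions away from start sites, a pair of each, without a footprint in both libraries, each with the peak of the same kind of location that carried footprints in both libraries and was nearest in mean value. Peaks are named by the nearest protein-coding start site, which need not be that of the gene whose intron holds them. Letters are the + strand of RefSeq GRCm38.p6, lower case, with the bases inside replicate 1 footprints in capitals. The intervals are those of the replicate 1 peaks, and replicate 2 footprints are not marked. No footprint refers to the peak of each library in its own bounds. The Gm10197 peak was narrower in replicate 2, and a replicate 2 footprint just outside it overlaps the printed interval. Bases of annotated untranslated regions were left out, so the promoter entries are the longest remaining stretch of the peak.
Ankrd16 promoter peak, no footprint (chr2:11778361-11778490): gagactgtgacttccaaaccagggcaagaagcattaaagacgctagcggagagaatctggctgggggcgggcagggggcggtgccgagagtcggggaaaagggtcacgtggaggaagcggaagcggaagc
Gramd4 promoter peak, footprinted (chr15:86058501-86058726): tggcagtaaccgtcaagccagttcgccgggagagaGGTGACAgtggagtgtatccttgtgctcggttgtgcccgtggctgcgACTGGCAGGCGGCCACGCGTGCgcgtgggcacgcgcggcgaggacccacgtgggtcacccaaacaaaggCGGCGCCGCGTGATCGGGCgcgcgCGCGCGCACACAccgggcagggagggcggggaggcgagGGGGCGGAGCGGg
Slc27a1 promoter peak, no footprint (chr8:71569449-71569747): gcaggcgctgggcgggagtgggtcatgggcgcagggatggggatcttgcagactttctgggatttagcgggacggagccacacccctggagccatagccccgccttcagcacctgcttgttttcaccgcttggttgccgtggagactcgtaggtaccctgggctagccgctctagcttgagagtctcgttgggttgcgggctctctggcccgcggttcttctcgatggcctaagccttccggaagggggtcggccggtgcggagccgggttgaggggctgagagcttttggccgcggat
P4htm promoter peak, footprinted (chr9:108597668-108597720): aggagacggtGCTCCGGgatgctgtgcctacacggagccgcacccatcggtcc
Intron peak nearest Gm10197, no footprint (chr19:53354031-53354177): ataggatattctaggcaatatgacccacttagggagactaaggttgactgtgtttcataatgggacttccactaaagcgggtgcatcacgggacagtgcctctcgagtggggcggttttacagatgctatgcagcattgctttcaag
Intron peak nearest Usp13, footprinted (chr3:32826801-32827000): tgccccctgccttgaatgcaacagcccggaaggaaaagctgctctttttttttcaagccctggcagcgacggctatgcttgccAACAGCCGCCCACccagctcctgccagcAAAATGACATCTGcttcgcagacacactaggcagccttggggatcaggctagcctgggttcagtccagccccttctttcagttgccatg
Intron peak nearest Tex264, no footprint (chr9:106681154-106681323): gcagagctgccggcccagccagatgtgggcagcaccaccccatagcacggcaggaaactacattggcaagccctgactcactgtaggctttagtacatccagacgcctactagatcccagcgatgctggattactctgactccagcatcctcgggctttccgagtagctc
Intron peak nearest Mgll, footprinted (chr6:88736775-88736898): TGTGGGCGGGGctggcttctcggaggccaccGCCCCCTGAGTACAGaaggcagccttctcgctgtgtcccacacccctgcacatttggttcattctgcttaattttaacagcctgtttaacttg
The Ankrd16 peak had a value of 2.78 in replicate 1 and 1.91 in replicate 2, and its footprinted counterpart at Gramd4 had 2.82 and 1.87. The Gramd4 peak held 5 footprints in replicate 1 and 3 in replicate 2. The Ankrd16 peak held the letters GGGCGG, a binding sequence of SP and KLF zinc finger factors, where by the rule no footprint was called. The Gramd4 peak held the same letters both outside and inside a marked footprint. The counterparts of the promoter pair were richer in G and C: the whole peaks had a GC content of 58.3% at Ankrd16 against 74.3% at Gramd4, and 62.4% at Slc27a1 against 75.5% at P4htm. In the introns the direction was mixed, with 47.6% at Gm10197 against 57.0% at Usp13 and 57.6% at Tex264 against 55.6% at Mgll.

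Unfootprinted peaks were mainly weak peaks. Over all values, 7574 peaks (10.6%) in replicate 1 and 14463 peaks (13.4%) in replicate 2 held no footprint. The share was 35.1% and 46.1% in the weakest decile of the peaks, 5.23% and 7.14% in the decile just above the median, and 0.0561% and 0.0740% in the strongest decile. Members had a median value of 1.46 in replicate 1, with a highest value of 7.03, and of 1.07 in replicate 2, with a highest value of 6.02. All footprinted peaks at or above the median had median values of 2.49 and 1.59. At the threshold itself, the weakest members had values of 1.254 and 0.901, and the strongest unfootprinted peaks left out had 1.247 and 0.894.

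**Figure D1:**
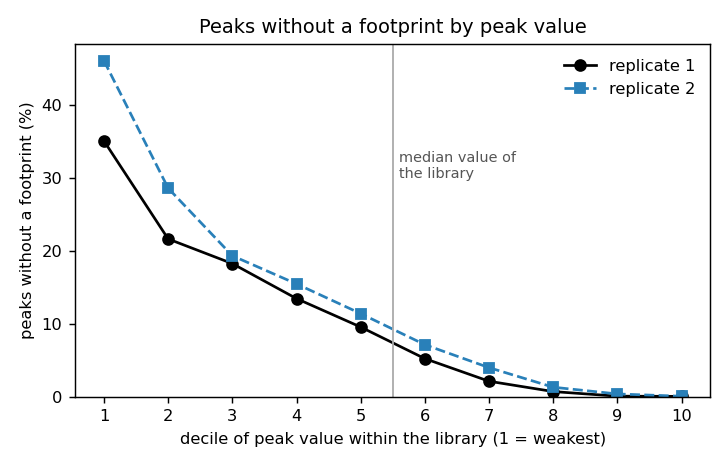
Share of peaks without a footprint (y axis, percent) in each decile of the peak value of its library (x axis, 1 is the weakest), for both libraries. The line marks the median value, and the share falls from left to right in both libraries, to 0.0561% and 0.0740% in the strongest decile.

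Each property below was set against footprinted peaks of the same library, weighted so that their values had the distribution of the members over 20 bins. These footprinted peaks held a median of 3 footprints. With 2 libraries an exact permutation test cannot go below p = 0.5, so each comparison is given per library and as the mean difference ± SD (n = 2). Nearly all bases of a member passed the deposited per-base cutoff, as in peaks in general. Bases with a false discovery rate of at most 0.001 in the deposited per-base list made up 99.5% and 97.5% of member bases, against 99.7% and 99.3% in footprinted peaks of equal value. All peaks at or above the median had 99.9% and 99.6%. The peaks and the per-base list come from the same library, so these shares are description only.

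Regions without a footprint lay mostly at promoters, defined as within 1 kb of a protein-coding transcription start site. In replicate 1, 445 of 588 members (75.7%, 72.1 to 79.0%) were promoter peaks, against 22.9% of footprinted peaks of equal value. In replicate 2, 761 of 1426 members (53.4%, 50.8 to 55.9%) were promoter peaks, against 15.5%. The difference was 45.3 ± 10.5 percentage points, positive in both libraries and larger than the spread between them. Introns held 13.8% and 27.7% of members, against 39.5% and 46.0% of footprinted peaks of equal value (difference -22.0 ± 5.23 points). Intergenic sequence held 6.63% and 12.7% of members, against 28.3% and 30.6% (difference -19.8 ± 2.65 points). Start sites of other genes, coding exons and other exons together made up the remainder in both groups, at 0.510 to 4.07% each among members.

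**Figure D2:**
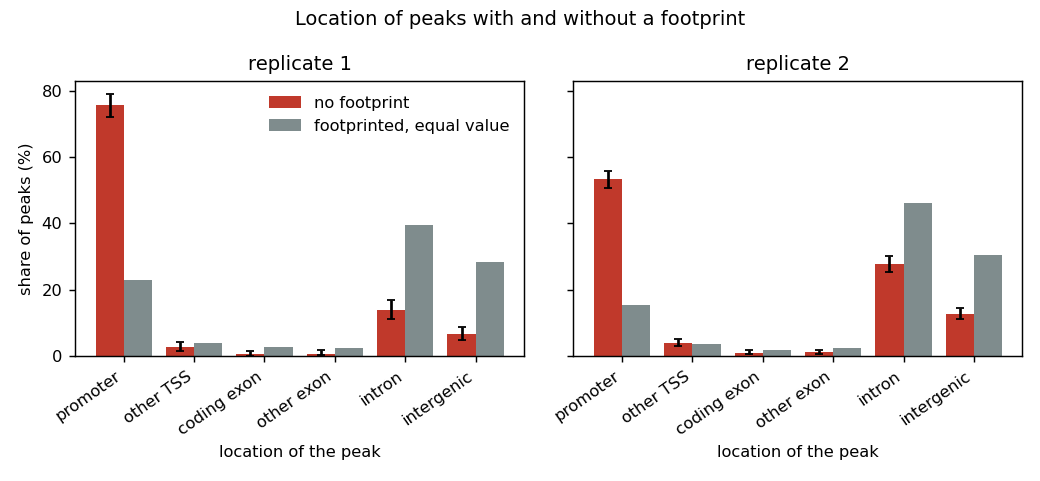
Share of peaks (y axis, percent) by kind of location (x axis) for members without a footprint and for footprinted peaks of equal value, 1 panel per library; error bars are 95% Wilson intervals of the members' shares and cover counting error only. Promoters hold 75.7% and 53.4% of members, against 22.9% and 15.5% of footprinted peaks of equal value.

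Members were richer in G, C and CpG than footprinted peaks over all locations together, but not in the same direction within promoters. Their mean GC content was 63.8% in replicate 1 and 56.2% in replicate 2, against 55.3% and 51.3% in footprinted peaks of equal value (difference 6.72 ± 2.65 points). The ratio of observed to expected CpG dinucleotides averaged 0.710 and 0.513, against 0.406 and 0.340 (difference 0.238 ± 0.0921). CpG-rich peaks, with a GC content of at least 55% and a ratio of at least 0.6, made up 63.4% and 31.4% of members, against 20.3% and 11.5%. Among promoter peaks alone the GC difference changed sign between the libraries: members had 66.0% and 60.2%, against 65.0% and 61.4% (difference -0.107 ± 1.57 points). Among distal peaks, more than 1 kb from every annotated start site, members had 56.7% and 51.3%, against 52.2% and 49.4% (difference 3.26 ± 1.81 points).

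Among peaks at or above the median value, the share without a footprint was lowest in AT-rich peaks. Below a GC content of 40%, 0 of 454 peaks in replicate 1 (95% Wilson upper bound 0.839%) and 1.20% in replicate 2 held no footprint. The share was 1.24% and 2.83% between 50 and 60%, and 3.72% and 3.65% from 70% upwards. By chromosome, the share was 0.958 to 2.25% in replicate 1 and 1.82 to 3.41% in replicate 2, and no chromosome was without members. These shares are description, since the peaks of a library share its depth and its calling.

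Members were wider than their counterparts at the median over all locations together, and narrow peaks were over-represented among them. Their median width was 234 bp and 240 bp, against 195 bp and 220 bp (difference 29.5 ± 13.4 bp). Promoter members had 240 bp and 280 bp, against 220 bp and 260 bp, while distal members had 200 bp in both libraries, against 180 bp and 220 bp, so that the distal difference changed sign. Peaks under 100 bp made up 6.46% and 14.2% of members, against 1.24% and 3.18% (difference 8.10 ± 4.08 points). Among all peaks at or above the median, 15.97% of those under 100 bp in replicate 1 held no footprint, against 0.562% of those between 150 and 200 bp and 4.34% of those of 300 bp or more. In replicate 2 the same widths gave 18.5%, 1.61% and 4.52%. Members held less repeat-masked sequence, 6.23% and 6.82% against 8.94% and 8.88% (difference -2.39 ± 0.459 points). Of their 32-base words, 99.4% and 99.3% occurred once in the genome, against 98.8% and 99.0% in footprinted peaks of equal value. In either library 0 members matched mitochondrial sequence, which allows a share of up to 0.510% and 0.210%. Among all peaks at or above the median only 0.0028% and 0.0018% matched it, so the 0 is not read as a property of the members.

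The members sat close to other, stronger peaks. The median gap to the nearest other peak was 189 bp in replicate 1 and 260 bp in replicate 2, against 3780 bp and 3248 bp for footprinted peaks of equal value. Another peak lay within 500 bp of 81.1% and 70.4% of members, against 24.5% and 23.3% (difference 51.9 ± 6.78 points). A stronger peak lay within 1 kb of 82.5% and 74.1% of members, against 15.8% and 15.5% (difference 62.6 ± 5.79 points). A footprinted peak lay within 1 kb of 84.5% and 76.4%, against 28.5% and 27.4%. In the 1 kb around the peak centre, 62.2% and 56.1% of bases reached the false discovery rate of 0.001 around members, against 34.5% and 36.9% (difference 23.4 ± 5.99 points).

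**Figure D3:**
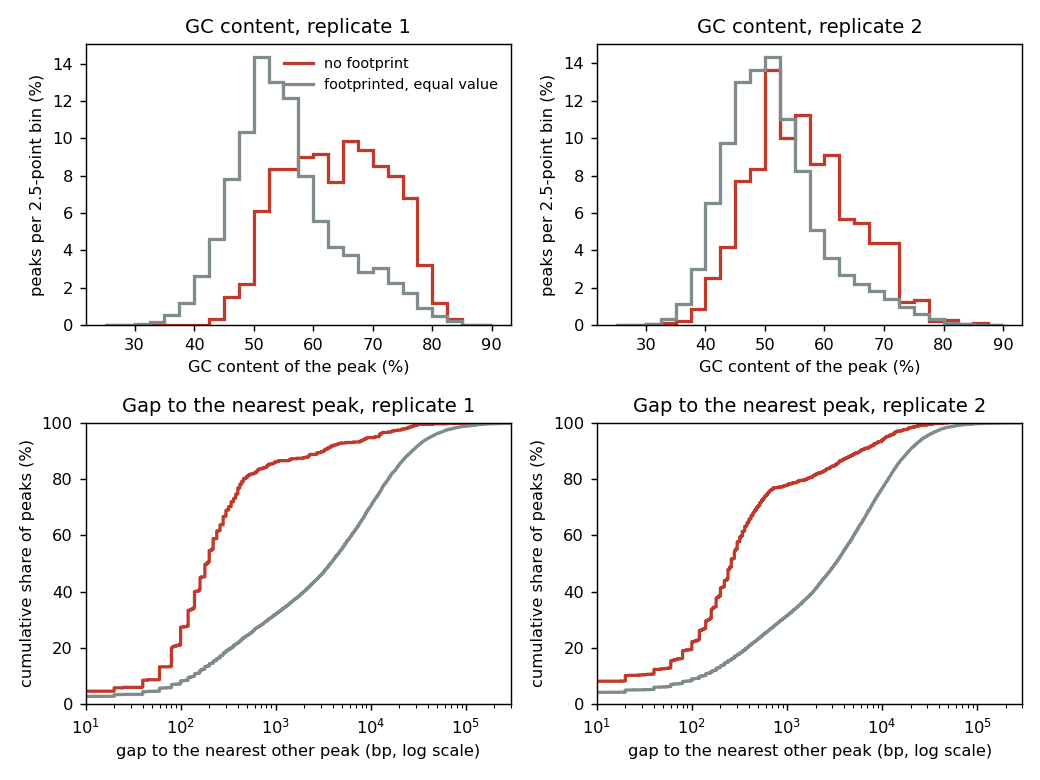
Top, distribution of the GC content of members and of footprinted peaks of equal value (percent of peaks per bin of 2.5 points). Bottom, cumulative share of peaks by the gap to the nearest other peak of the same library (bp, log axis). The members' median gap is 189 bp and 260 bp, against 3780 bp and 3248 bp, and their GC content lies higher in both libraries.

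This held within promoters and within distal peaks. At promoters a stronger peak lay within 1 kb of 94.2% and 95.01% of members, against 41.5% and 46.5% of footprinted peaks of equal value (difference 50.6 ± 2.93 points). Distal members had a stronger peak within 1 kb in 42.5% and 48.4% of cases, against 8.46% and 9.92% (difference 36.3 ± 3.15 points). Distal members without another peak within 500 bp numbered 71 (12.1% of members) in replicate 1 and 314 (22.0%) in replicate 2. The nearest footprint of the same library was a median of 183 bp and 212.5 bp from a member's edge.

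At promoters the members stood beside the start site more often than on it. A protein-coding start site lay inside 23.1% and 13.9% of promoter members, against 45.1% and 40.2% of promoter peaks of equal value that carried a footprint (difference -24.1 ± 2.99 points). The centre of a promoter member was a median of 330 bp and 454 bp from the nearest start site, against 168 bp and 246 bp. On the gene's own strand, the median centre was 247 bp and 324 bp downstream of the start, against -5 bp (upstream) and 6 bp. The centre was downstream in 68.1% and 69.3% of promoter members, against 48.2% and 51.03% (difference 19.03 ± 1.15 points).

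Most genes with such a promoter member also had a footprinted promoter peak, as did most genes with any promoter peak. Promoter members lay at 489 genes in replicate 1 and 804 in replicate 2. Of these, 471 (96.3%) and 778 (96.8%) had another promoter peak with a footprint. Among all genes with a promoter peak of any value, 99.2% and 98.7% had a footprinted one. A gene with a member needed a further peak to be counted, while the general share includes genes with a single peak. The measures are thus unlike, and the share is not read as a property of the members. The lists shared 148 genes, 30.3% of the replicate 1 list and 18.4% of the replicate 2 list. For comparison, 3.805% of all genes with a promoter peak had a member in replicate 1, and 6.198% in replicate 2.

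Letters of 12 binding motifs were searched on both strands in the middle 150 bp of every peak. In peaks narrower than 150 bp this window passed the edges, so a match can lie in the flanking sequence. Narrow peaks were more frequent among members: 6.46% and 14.2% were under 100 bp, against 1.24% and 3.18% of footprinted peaks of equal value. A match is a description of the letters and not a bound site. The motif of CTCF, the insulator protein that binds DNA for long periods and leaves deep footprints, stood in 2 members (0.340%) in replicate 1 and 2 members (0.140%) in replicate 2. Footprinted peaks of equal value held it in 9.09% and 6.41% (difference -7.51 ± 1.75 points), and all peaks at or above the median in 11.7% and 7.04%. With footprinted peaks matched also on GC content the shares were 4.85% and 5.52%. The motif was rare at promoters in general. None of the promoter members held it (0 of 445 and 0 of 761 peaks, which allows a share of up to 0.674% and 0.394%), against 1.47% and 1.51% of footprinted promoter peaks of equal value. Distal members held it in 1.57% and 0.329%, against 11.3% and 7.44% (difference -8.44 ± 1.88 points). Members were chosen for the lack of a footprint, so the rarity of a motif whose factor leaves deep footprints is not independent of the rule. The CTCF differences are given as description only.

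The GC-rich motif GGGCGG of SP and KLF factors, which bind many housekeeping promoters, stood in 39.97% and 20.3% of members, against 18.4% and 11.2% of footprinted peaks of equal value. After matching on GC content the counterparts had 38.4% and 19.8%, so that 1.08 ± 0.706 points remained. Among promoter peaks alone GGGCGG was no more frequent in members, at 46.7% and 28.9% against 47.7% and 34.7%, and after GC matching the difference was -4.19 ± 0.827 points. Distal members held it in 16.5% and 10.05%, against 8.79% and 6.45%. CCGGAAG, the site of ETS factors at CpG-rich promoters, stood in 5.95% and 3.30%, against 2.27% and 1.51%, and against 4.04% and 2.65% after GC matching. Promoter members held CCGGAAG in 6.97% and 5.26%, against 4.69% and 3.55%, and against 6.00% and 4.53% after GC matching. This was less than in all promoter peaks at or above the median, at 12.6% and 10.8%. All peaks at or above the median held GGGCGG in 28% and 18.6%, and CCGGAAG in 5.81% and 3.79%.

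AP-1, MEF2 and E-box sequences were rarer in members than in footprinted peaks of equal value over all locations together, but not among distal peaks alone. After GC matching the differences of -4.53 ± 1.89 points for AP-1 and -4.19 ± 0.322 points for MEF2 became -1.06 ± 1.36 and -0.233 ± 0.669 points. TGANTCA, the site of AP-1, the Fos and Jun dimer induced by neuronal activity, stood in 3.91% and 11.01%, against 9.78% and 14.2%, and against 5.93% and 11.1% after GC matching. CTANNNNTA is a loose form of the site of MEF2, a factor of neurons and muscle, with the middle bases left free. It stood in 5.44% and 8.56%, against 9.40% and 13.0%, and against 5.20% and 9.26% after GC matching. CAGCTG, an E-box of helix-loop-helix factors, stood in 11.1% and 10.1%, against 14.1% and 13.9%, and against 13.4% and 14.7% after GC matching. Among distal peaks AP-1 stood in 7.87% and 18.3% of members, against 11.8% and 16.2%, and MEF2 in 11.8% and 10.7%, against 10.7% and 14.2%, so that both differences changed sign between the libraries. The distal E-box shares were 16.5% and 14.8%, against 15.4% and 14.7%. The share in all peaks at or above the median was 6.51% and 12.3% for AP-1, 8.11% and 11.2% for MEF2, and 11.8% and 13.0% for the E-box.

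The other motifs were rare. TGACGTCA (CRE, bound by CREB), AAGATGGCG (YY1), GTTGCCATG (RFX) and the palindromic NFI motif each stood in at most 0.510% of members. This was 1 to 7 members per library, and each share was below that of footprinted peaks of equal value. In replicate 1 the Wilson interval of every one of these shares included the footprinted share, so the differences there were within counting error. In replicate 2 this held for YY1 (interval up to 0.396%, against 0.260%), while the intervals of CRE, RFX and NFI lay below the footprinted share. GCGCATGCG (NRF1) stood in 0.850% and 0.210%, against 0.499% and 0.265%. GCGTGGGCG (EGR), which can share bases with GGGCGG, stood in 0.680% and 0.140%, against 0.478% and 0.246%. For both, the difference changed sign between the libraries. All peaks at or above the median held these 6 motifs in 0.349 to 1.68%.

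**Figure D4:**
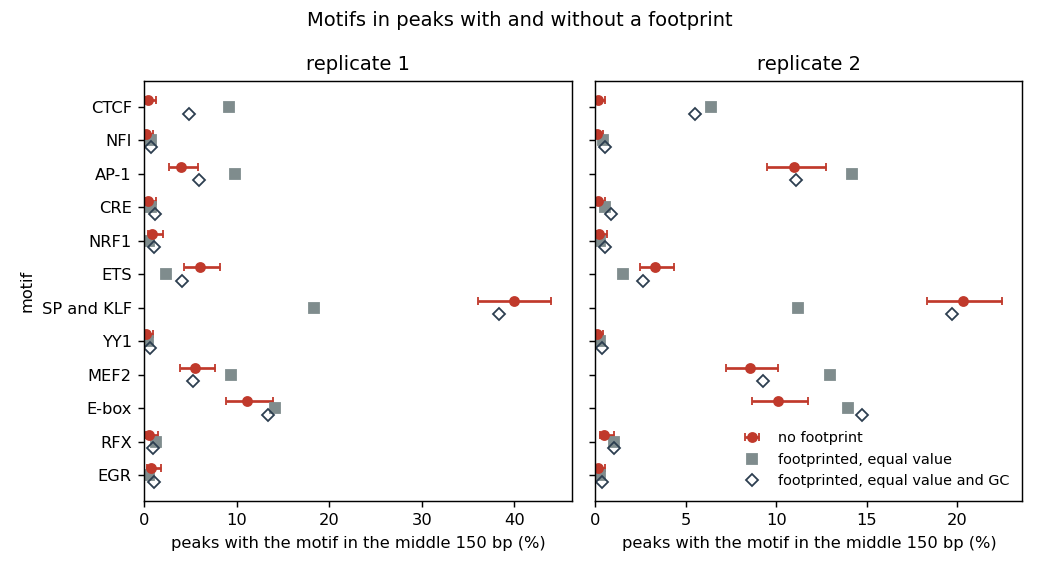
Share of peaks with each motif in the middle 150 bp (x axis, percent) for members without a footprint (95% Wilson intervals, counting error only), footprinted peaks of equal value and footprinted peaks of equal value and GC content, 1 panel per library with its own scale. CTCF stands at 0.340% and 0.140% of members, while GGGCGG stands close to its GC-matched share.

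The footprints of the other library, which the rule did not use, were often missing at the same places. A peak of the other library overlapped 464 of 588 members (78.9%) of replicate 1, against 92.2% of footprinted peaks of equal value, and 973 of 1426 members (68.2%) of replicate 2, against 69.2%. By location the overlap in replicate 2 was 82.9% of promoter members, against 87.0%, and 49.4% of distal members, against 65.95%. In replicate 1 it was 75.3% of promoter members, against 89.7%, and 91.3% of distal members, against 92.6%. The overlapping peak held no footprint for 143 of the 464 members of replicate 1 (30.8%, 26.8 to 35.2%), against 2.20% of footprinted peaks of equal value. It held none for 431 of the 973 members of replicate 2 (44.3%, 41.2 to 47.4%), against 5.14%. The difference was 33.9 ± 7.45 points. Among all peaks at or above the median that overlapped a peak of the other library, the share was 1.35% and 3.78%, of 34187 and 45963 peaks.

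Promoter members recurred more than distal members. The overlapping peak held no footprint for 38.8% and 56.4% of promoter members, against 7.27% and 9.46% of footprinted promoter peaks of equal value (difference 39.2 ± 10.9 points). For distal members the shares were 7.76% and 20.0%, against 0.791% and 4.15% (difference 11.4 ± 6.28 points). At most 300 distal members per library had such a peak, and whether the promoter and distal differences themselves differ was not tested. The median log2 ratio of the other library's value to the member's own was -0.19 and 0.11 for promoter members, against -0.28 and 0.30 for footprinted promoter peaks of equal value. For distal members it was 0.35 and -0.22, against -0.02 and -0.09. Distal members with an overlapping peak, 116 in replicate 1 and 300 in replicate 2, thus had higher deposited values in replicate 2 at the median. The scaling of the values is not stated, so the libraries may not share a scale.

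**Figure D5:**
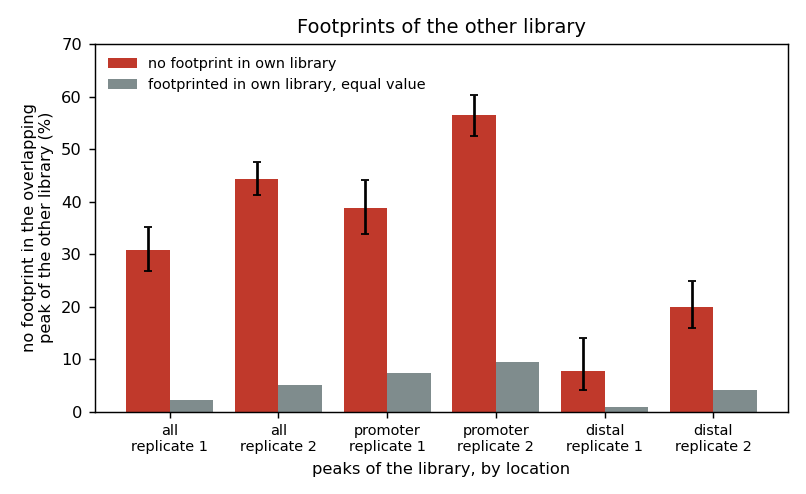
Share of peaks (y axis, percent) whose overlapping peak in the other library held no footprint, for members and for footprinted peaks of equal value, by library and location; error bars are 95% Wilson intervals of the members' shares and cover counting error only. Members lie above footprinted peaks in all 6 pairs of bars, with 30.8% and 44.3% against 2.20% and 5.14% over all locations.

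Peaks that overlapped 1 to 1 and reached the median in both libraries formed 30803 pairs. No footprint was listed on either side of 104 pairs, 276 lacked one in replicate 1 alone, 199 lacked one in replicate 2 alone, and 30224 had one in both. Promoters made up 93 of the 104 shared members (89.4%), against 37.3% of the pairs with a footprint in both. The shared members had median values of 1.47 in replicate 1 and 1.23 in replicate 2, and a median GC content of 65.9%.

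The 10 strongest shared members were all promoter peaks. The highest mean value was that of Ankrd16, an ankyrin repeat protein that works with alanyl-tRNA synthetase in mouse (2.34 ± 0.615, SD, n = 2), whose peak overlapped the start site. Slc27a1, a fatty acid transporter, had values of 1.76 and 2.18 in a peak 434 bp from the start site. Zfp809, a zinc finger protein that silences retroviral sequence in mouse, had 2.19 and 1.73. Letm2, of a family of mitochondrial membrane proteins, had 1.93 and 1.91, and Dnajb1, a heat shock co-chaperone, had 1.91 and 1.88. Zbtb11, Pmm1, Gtf2ird2, Plpbp and Srp9 completed the list, with mean values of 1.86 to 1.92. In these 10 peaks the nearest footprint of replicate 1 was 100 to 542 bp away, and that of replicate 2 was 40 to 586 bp away.

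More than 1 kb from every start site and with at least 95% unique words, 6 shared members remained. The strongest lay in introns, with the start sites of Gm10197 (1.39 in replicate 1 and 1.82 in replicate 2) and of Tex264 as the nearest. Tex264 is a receptor for the breakdown of endoplasmic reticulum, and the peak near it had values of 1.34 and 1.84. Both peaks were close to a footprint in a single library. At Gm10197 a replicate 2 footprint stood 7 bp from the replicate 2 peak of 60 bp, and thus overlapped the wider replicate 1 peak of 147 bp. The nearest replicate 1 footprint was 1031 bp from that wider peak. At Tex264 a replicate 1 footprint stood 8 bp from the replicate 1 peak of 170 bp, and thus overlapped the wider replicate 2 peak of 233 bp. The nearest replicate 2 footprint was 4514 bp from the latter. The others lay nearest to Pcdhb1, Grb7, Yy1 and Sema3b, with mean values of 1.32 to 1.45.

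Members with no peak in either list of the other library numbered 109 (18.5%) in replicate 1 and 200 (14.0%) in replicate 2. A peak in either list was thus present for 81.5% and 86.0% of members, against 97.7% and 89.2% of footprinted peaks of equal value and 98.1% and 94.95% of all peaks at or above the median. The 5 strongest in replicate 1 lay at the promoters of Derl1 (2.90), Ruvbl2 (2.89), Rabl3 (2.68), Osbpl9 (2.62) and Tmed1 (2.43). Those in replicate 2 lay at Brinp1 (2.10), Dus3l (1.89), Zfp3 (1.69), Zfr (1.63) and Pank1 (1.58). All 10 were promoter peaks with another peak at most 120 bp away and a footprint at most 111 bp away.

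The strongest members of a single library were often narrow or next to a footprint. A footprint stood within 50 bp of the edge of 65 members (11.1%) in replicate 1 and of 287 members (20.1%) in replicate 2. Among the 10 strongest members of each library, 6 and 6 had such a footprint, and 5 and 3 were narrower than 100 bp. The strongest of all in replicate 1 was a peak of 60 bp in intergenic sequence nearest to Wnt7b (7.03), 1 bp from a footprint. In replicate 2 the strongest was a peak of 160 bp at the promoter of Gcdh, a mitochondrial enzyme of lysine breakdown (6.02), 42 bp from a footprint. All 20 of these peaks overlapped a peak of the other library, and all 20 of those peaks held a footprint.

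Among genes that mark the cells of the cortex, the general neuronal and excitatory ones were open and footprinted throughout. Those of inhibitory neurons and of other cell types were so in part. All 10 neuronal markers, such as Snap25 and Map2, and all 10 markers of excitatory cortex neurons, such as Slc17a7 and Neurod2, had a footprinted promoter peak in both libraries. Here peaks of any value were counted. Promoter peaks were found for 3 and 3 of 10 markers of inhibitory neurons, 5 and 7 of 10 of astrocytes, 7 and 7 of 9 of oligodendrocytes, 3 and 3 of 10 of microglia and 4 and 3 of 10 of blood vessels. Of the open ones, 1 astrocyte marker in each library and 1 oligodendrocyte marker in replicate 2 had no footprinted promoter peak. None of the 10 genes of other organs had a promoter peak. Over the cortex lists 42 and 43 genes had a promoter peak and 0 had a member. Over all genes with a promoter peak 3.805% and 6.198% had a member, so the 0 is not read as a property of the markers. Housekeeping genes on chromosomes 1 to 19 all had a footprinted promoter peak (8 of 8 in both), and 2 of them also had a member. At Eef1a1, the translation elongation factor, a member of 340 bp had a value of 2.17 in replicate 1, beside footprinted peaks of 4.88 and 4.01, and a member of 400 bp had 1.21 in replicate 2, beside a footprinted peak of 5.39. At Gapdh, the glycolytic enzyme, a member in replicate 2 alone had a value of 1.10. The footprinted promoter peaks nearest to it were weaker, at 0.774 and 0.888, and a footprinted peak of 4.66 lay further away.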

How the data were processed

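DNase-seq of 2 cortex libraries was used as deposited. Per the deposited notes, the authors called peaks and footprints in each library separately on mm10; for the aligner, callers and thresholds, nothing is stated in the sources read. The signal value of a peak was deposited by the authors, and its scaling is not stated. The deposited footprint score was the same in every row and unused. The authors' per-base q-values (false discovery rates) were listed up to 0.05. Read totals were not used, so depth is unknown. Alleles were not separated, and a reference from C57BL/6J can miss CAST/EiJ reads. Some peaks overlap within a list (634 of 73221 and 1413 of 111105).

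Overlaps, GC content and motifs were computed with numba 0.67.0, scipy 1.17.1, pandas 2.3.3 and numpy 2.4.6 in python 3.11.15, drawn with matplotlib 3.10.9, and tested on simulated data. Start sites came from GENCODE M21, sequence from RefSeq GRCm38.p6 and mitochondrial matches from blastn 2.17.0. Footprinted peaks were weighted to the members' values over 20 bins, and for motifs also over 5 value by 5 GC bins. Peaks named are the 10 strongest shared members, the 10 strongest at promoters (the same peaks), the 10 strongest distal ones of at least 95% unique words (6 existed) and the 5 strongest of each library absent from both lists of the other. The single-library peaks nearest Wnt7b and Gcdh were named after their values were seen. The members, gene lists and motifs were chosen with earlier results of these data known. Intervals cover counting error only.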

Additional observations from a re-analysis of the deposited data

How the results depend on the processing

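With the settings used above, each of the following differences had the same sign in both libraries. Under the alternatives the mean difference kept its sign except for width with no value threshold or at the 75th percentile and for GC content within promoters, and the promoter difference stayed within 1 SD of its value in 11 of 14 alternatives. Taking each library alone, the share of peaks without a footprint was 1.65 to 2.62%. The differences between members and footprinted peaks of equal value then ranged from 37.9 to 52.8 points for promoters, -21.7 to -17.9 points for intergenic sequence, 4.85 to 8.59 points for GC content and 0.173 to 0.303 for the CpG ratio. They ranged from 20.0 to 39.0 bp for width, -13.3 to -1.01 points for overlap with the other library, 28.6 to 39.2 points for a missing footprint there, -2.71 to -2.06 points for repeats, 0.286 to 0.603 points for unique words and -8.75 to -6.27 points for CTCF.

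With no value threshold the median width changed sign (-31.5 bp), the share without a footprint was 12%, and the differences were 31.2 points for promoters, -17.0 for intergenic sequence, 0.751 for unique words and -3.06 for CTCF. With the 75th percentile as threshold, 32 and 106 members were left, 0.285% of peaks; the differences were 3.98 points for GC content, 0 bp for width, 16.1 points for a missing footprint in the other library, -1.52 for repeats, 0.101 for unique words and -12.5 for CTCF. Matching on value and GC content gave 25.5 points for promoters, -10.7 for intergenic sequence, 0.419 for GC content itself, 0.0901 for the CpG ratio, -0.954 for repeats and -5.07 for CTCF. Matching on value and width gave -15.2 points for intergenic sequence, 2.5 bp for width itself, -1.57 for repeats and -4.95 for CTCF. With no matching on value the differences were 32.2 points for promoters, -16.3 for intergenic sequence, 0.143 for the CpG ratio, -16.9 for overlap with the other library, -0.916 for repeats and -9.32 for CTCF. The longer peak list gave 5.87% without a footprint, -17.1 points for intergenic sequence and -4.58 for CTCF. Counting only footprints wholly inside a peak gave 11.5 bp for width and -1.90 for repeats. Adding chromosome X gave 0.110 points for unique words, and keeping peaks of at least 95% unique words gave 0.0104 for unique words and -1.90 for repeats.

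Comparisons chosen after seeing the data gave a GC difference of -0.107 points within promoters, which reversed the sign, and 3.26 points within distal peaks, and a CTCF difference of -4.95 points with GC matched in the middle 150 bp. Leaving out narrow members and those with a footprint within 50 bp gave 49.1 points for promoters. The cause of these changes was not tested, apart from matching on a property, which by construction removes its difference. Members and footprinted peaks were set against each other inside each library, which pairs them by library; a replicate block across groups does not apply with 1 group of libraries. Depth was not known, so a footprint missed at low depth cannot be told apart from one that was not there.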
